A study of Mus musculus with 12 samples.

Results

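The replication-dependent histone genes are the clustered genes that supply the core histones H2A, H2B, H3 and H4 and the linker histone H1 to dividing cells. They were taken as every protein-coding gene of the GENCODE M21 mouse annotation whose symbol starts with Hist1h, Hist2h, Hist3h or Hist4h, and matched to the count tables by Ensembl identifier. This gave 67 genes of the 55401 gene identifiers counted. The rule reads symbols and no measured value. The set held 6 H1, 18 H2A, 18 H2B, 12 H3 and 13 H4 genes.

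RNA was profiled in the adherent mouse neuroblastoma line Neuro-2a after knockdown of Rbmx or Rbmxl1. Rbmx encodes the nuclear RNA-binding protein hnRNP G, and Rbmxl1 is its retrocopy on an autosome. All cells received a GFP plasmid (pCAGGs-linkB-IRES-GFP) together with pCAG-miR30 plasmids for artificial microRNAs: a scramble sequence in the control group, a pool of 3 constructs against Rbmx, or a pool of 2 constructs against Rbmxl1. Transient lipofection was followed 48 h later by flow sorting of GFP-positive cells, and stranded libraries were made from total RNA after removal of ribosomal RNA. Each of the 3 groups held 4 biological replicates, numbered 1 to 4; the labels do not say what shares a number or whether replicates were separate cultures, so p-values measure the spread between these samples. No genotype other than the knockdown differed between the groups, and all groups came from the same line.

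Replication-dependent histone genes are switched on as cells enter S phase and off again when DNA synthesis stops. Their mRNAs carry no poly(A) tail in dividing cells. They have no introns as a rule and end instead just after a short stem-loop, which is bound by the stem-loop binding protein Slbp and cut by a complex guided by the U7 small nuclear RNA. Ribosomal depletion of total RNA keeps such transcripts, which selection on poly(A) would lose.

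The stem-loop is the sequence that defines the mature end of these mRNAs, and it was read from the GENCODE M21 transcripts. The searched motif was GGNNNTTNTNANNNCC on the transcript strand, with 6 paired bases on each side (G-T pairs allowed) around a loop of 4. It was present in 46 of the 67 genes and in 127 of 21951 protein-coding genes with transcripts (0.579%), 81 of them outside the set. It began 21 to 58 bases after the stop codon, with a median of 31. For 21 genes the annotated model held no motif, and several of those models stop at or near the end of the coding sequence. The letters of the H4 stem-loops were found in no other class. Outside H4, the letters of Hist1h3g (H3) and of Hist2h2ac (H2A) each occurred in that gene alone, and the rest were shared between classes. The 26 copies of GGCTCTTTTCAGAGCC belonged to H1, H2A, H2B and H3 genes and none to an H4 gene, while 7 of the 12 H4 genes with a motif carried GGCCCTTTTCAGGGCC, 2 carried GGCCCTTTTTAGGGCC and 2 carried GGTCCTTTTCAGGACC. The stem-loops of 9 genes that rose in the Rbmx knockdown are shown with 5 flanking bases on each side and the stem-loop itself in capitals.
Hist4h4: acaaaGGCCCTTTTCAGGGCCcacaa
Hist1h4f: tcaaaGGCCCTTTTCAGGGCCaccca
Hist2h4: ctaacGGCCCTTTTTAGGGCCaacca
Hist1h4i: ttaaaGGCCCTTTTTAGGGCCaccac
Hist1h1e: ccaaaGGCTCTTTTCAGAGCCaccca
Hist1h1c: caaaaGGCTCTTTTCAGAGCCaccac
Hist3h2ba: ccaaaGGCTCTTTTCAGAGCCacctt
Hist1h3c: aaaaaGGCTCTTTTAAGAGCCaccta
Hist1h3e: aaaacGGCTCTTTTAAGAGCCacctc
The first 4 are H4 genes, and the others encode H1, H2B and H3.

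The promoters differed by class as well. RefSeq promoter windows (GRCm38.p6, 250 bases before to 50 after the start) were matched for 62 of the 67 genes by Entrez identifier, and motifs were searched on both strands in the 250 bases before the start. The octamer ATTTGCAT, the letters bound by POU-domain factors such as Oct-1, was present in 7 of 18 H2A and 6 of 16 H2B windows, in no window of the other classes, and in 1.6% of all 32851 windows. Divergent H2A and H2B pairs share overlapping windows, so these counts are not independent of each other. CCAAT, the letters bound by NF-Y, stood in every matched window of H1, H2A and H2B genes, in 8 of 10 H3 and 3 of 12 H4 windows, and in 33.8% of all windows. AAACACA, known as the H1 box, was present in 5 of 6 H1 windows, 2 H2A and 2 H2B windows, and 6.25% of all windows. TATAAA was present in 29 of 62 matched windows (46.8%) against 12.4% of all windows. A stretch of 150 bases from one H2B and one H1 gene that rose in the Rbmx knockdown shows these letters in capitals: CCAAT and TATAAA, on either strand, in Hist3h2ba (chr11:58948761-58948910, plus strand), and the H1 box and CCAAT in Hist1h1c (chr13:23738657-23738806, plus strand).
Hist3h2ba: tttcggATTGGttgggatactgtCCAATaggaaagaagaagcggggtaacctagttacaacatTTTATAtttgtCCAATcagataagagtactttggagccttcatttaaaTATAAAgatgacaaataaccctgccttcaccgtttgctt
Hist1h1c: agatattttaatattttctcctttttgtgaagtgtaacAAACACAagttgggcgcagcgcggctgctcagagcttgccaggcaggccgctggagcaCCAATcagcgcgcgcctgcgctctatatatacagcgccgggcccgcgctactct
A match of letters describes the window and does not show that a factor was bound.

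The genes lie in 4 clusters of the GRCm38 assembly. Hist1, the large cluster, holds 54 genes at chr13:21715763-23934851, in 3 blocks of 18, 5 and 31 genes separated by other genes. Hist2 holds 10 genes at chr3:96219865-96270132, Hist3 holds Hist3h2ba and Hist3h2a at chr11:58948920-58956830, and Hist4 is Hist4h4 alone at chr6:136801553-136804415. Most members are 1 exon long, and many are close copies of each other. The share of a gene's 50-base words that also occur in another gene had a median of 47.0% and ran from 0% to 100%. H1 genes were the most distinct, at 8.50% or less, and the class medians were 73.0% in H2A, 57.3% in H3, 44.6% in H2B and 39.5% in H4. Reads that aligned to several places were not assigned to genes in the deposited counts, so the level of a near-identical copy is uncertain.

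Of the 67 genes, 62 passed the filter on low counts: 5 H1, 16 H2A, 17 H2B, 11 H3 and all 13 H4 genes. Hist1h1t, the testis linker histone, and Hist1h2ba and Hist1h2aa, the testis H2B and H2A genes, had no more than 30 counts summed over the 12 libraries. Hist2h2aa1 and Hist2h3c1 had no count in any library. Both overlap the annotated gene Gm20634 on the same strand, and 96.3% and 34.7% of their 50-base words occur in another gene.

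H4 genes were the most abundant class and supplied 35.8% of the summed library-scaled counts (CPM, counts relative to library size) of the set in scramble libraries, followed by H1 with 23.9%, H3 with 21.1%, H2B with 12.1% and H2A with 7.14%. The Hist1 cluster supplied 77.6%, Hist2 15.3%, Hist4h4 alone 4.87% and Hist3 2.22%. Levels of single genes are compared as CPM per kilobase of merged exon, which allows for length. Among the tested genes the median of this scramble level was 128.4 in H4, 102.5 in H1, 73.2 in H3, 19.7 in H2B and 15 in H2A.

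Single genes ran over a wide range within each class. In the H3 class Hist2h3b stood highest at 516 ± 71.5 CPM per kilobase in scramble (SD, n = 4) and Hist2h3c2 lowest at 5.32 ± 0.803. In H4 the ends were Hist1h4k at 343 ± 23.3 and Hist1h4m at 2.26 ± 0.429 CPM per kilobase. Hist1h4m shares 89.8% of its words with another gene, so this low end is one where unassigned reads matter most. Among H1 genes Hist1h1b stood at 212 ± 34.2 CPM per kilobase and Hist1h1d at 22.9 ± 4.97. Hist1h1d has an annotated model that runs well past its stem-loop, which enlarges the length it is divided by. H2A ran from Hist1h2ak at 198 ± 28.7 to Hist1h2ap at 0.588 ± 0.0999 CPM per kilobase, and H2B from Hist1h2bl at 161 ± 36.6 to Hist1h2br at 0.572 ± 0.171. Dividing by unshared bases only, which leaves out Hist2h2aa2 because all of its words are shared, moved the median level over all 12 libraries from 46.4 to 93.9 CPM per kilobase. On that scale the class medians were 180.8 in H4, 155 in H3, 135.9 in H1, 43.7 in H2A and 37.3 in H2B, so H3 stood above H1 and H2A above H2B. The highest gene of each class stayed the same, and so did the lowest H1, H3 and H4 genes. The lowest H2A gene became Hist3h2a at 2.08 CPM per unshared kilobase, with Hist1h2ap at 11.5. The lowest H2B gene became Hist2h2be at 1.22 CPM per unshared kilobase, with Hist1h2br at 5.75. The annotated models of Hist3h2a, Hist2h2be and Hist1h2br run as far as 1700, 2192 and 1803 bases past the stop codon. These long models enlarge the length divided by, so the low ends depend on the annotation.

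**Figure D1:**
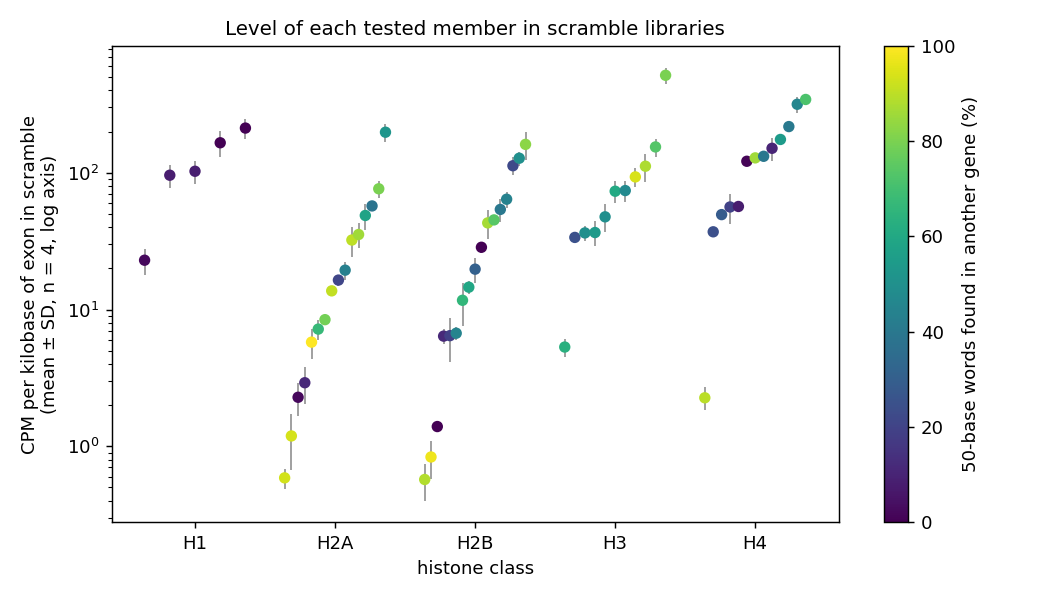
Level of each of the 62 tested genes in the scramble libraries as CPM per kilobase of exon on a log axis, by histone class; points are means of 4 libraries, bars are SD, and the colour is the share of 50-base words found in another gene. Hist2h3b is the highest point, at 516. The low ends of H2A and H2B hold genes with large shared shares, such as Hist1h2ap at 93.1%. Beside them stand genes with small shares, such as Hist3h2a at 2% and Hist2h2be at 0%. The annotated models of Hist3h2a and Hist2h2be run 1700 and 2192 bases past the stop codon, which lowers a level per kilobase.

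The libraries held 43.1 to 52.2 M reads in genes. Rbmx stood at 57.6 to 73.3 CPM in scramble and 22.2 to 32.6 in the Rbmx knockdown, and Rbmxl1 at 31.3 to 36.7 CPM in scramble and 12.3 to 16.7 in its own knockdown, so neither target overlapped scramble in its own knockdown. In the Rbmxl1 knockdown Rbmx stood at 81.9 to 90 CPM, above every scramble library, and in the Rbmx knockdown Rbmxl1 stood at 34.2 to 38.3, which overlapped the scramble range. Of 10 sympathetic neuroblast markers, 9 had a mean over 1 CPM in every group, and their summed level ran from 1600 to 2150 CPM over the 12 libraries. Of 9 markers of leukocytes, endothelium, fibroblasts and epithelium, only Pecam1 had a mean over 1 CPM over the 12 libraries and in every group, Cd68 ran from 0.453 to 1.48 CPM and passed 1 in the mean of the Rbmxl1 knockdown alone, Col3a1, Krt5, Krt18 and Epcam were at 0 in all 12 libraries, and their summed level was 5.90 to 6.85 CPM in scramble, 6.05 to 8.42 in the Rbmx knockdown and 6.40 to 8.80 in the Rbmxl1 knockdown.

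The summed level of the histone genes was higher in each Rbmx knockdown library than in any scramble library, and varied widely in the Rbmxl1 knockdown. In scramble replicates 1 to 4 the sum was 3850, 3467, 2924 and 3096 CPM (mean 3334 ± 412 SD). In the Rbmx knockdown it was 4109, 4213, 4132 and 4067 CPM (4130 ± 61.6). In the Rbmxl1 knockdown it was 5107, 3453, 3599 and 2892 CPM (3763 ± 947), with replicate 1 above and replicate 4 below every library of the other groups. Between libraries of the same number, the Rbmx knockdown stood 1.07, 1.22, 1.41 and 1.31 times as high as scramble, and the Rbmxl1 knockdown 1.33, 0.996, 1.23 and 0.934 times. The sums are dominated by the abundant genes and carry no test here. In bulk RNA, a larger share of cells in S phase and more histone RNA per cell cannot be told apart.

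**Figure D2:**
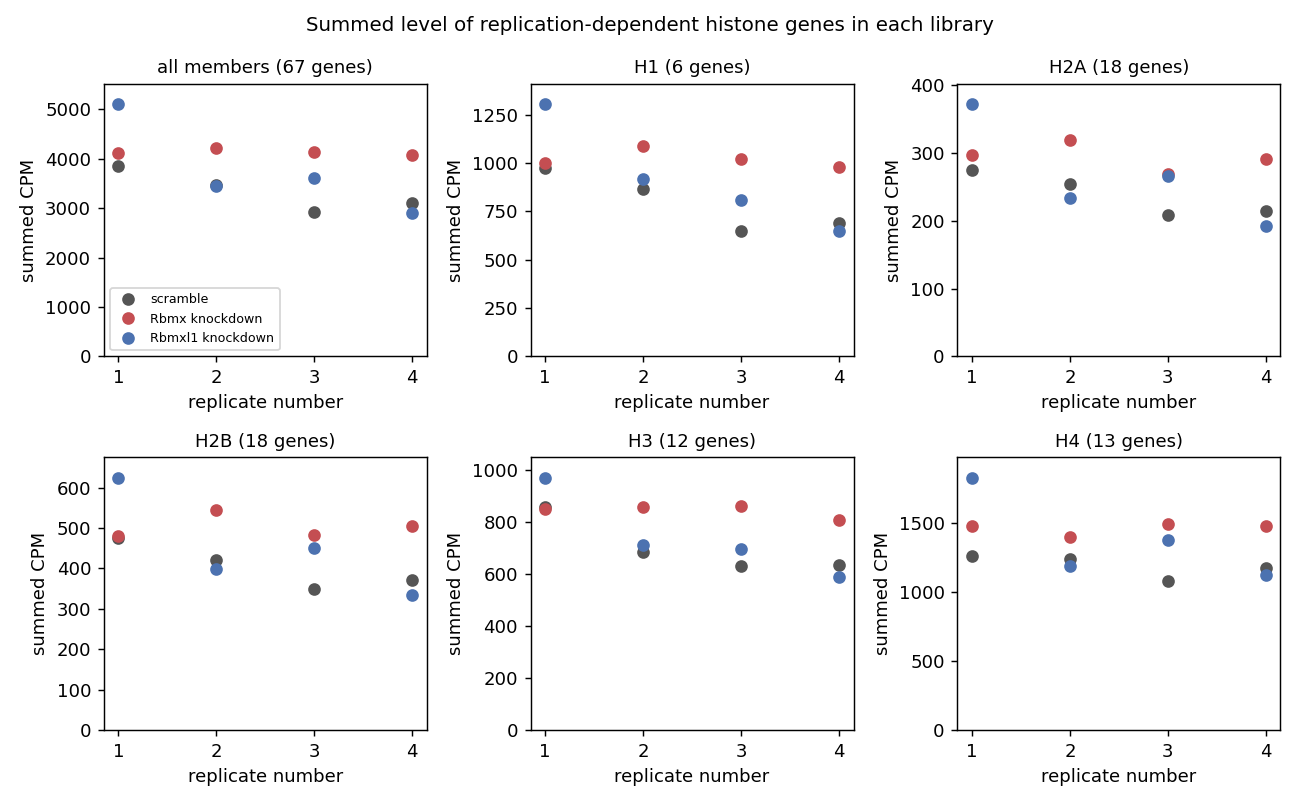
Summed CPM of all 67 genes and of each histone class (vertical axes, from 0) in the 12 libraries, by replicate number. Rbmx knockdown sums lie between 4067 and 4213 CPM, scramble sums between 2924 and 3850, and Rbmxl1 knockdown replicate 1 is the highest library at 5107.

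Libraries numbered 1 and 2 differed from those numbered 3 and 4 within groups, although the labels give no batch. In scramble, 38 of the 62 tested genes were lower in both of replicates 3 and 4 than in both of 1 and 2, and 7 were higher; over all tested genes the shares were 32.4% lower and 31.0% higher. In the Rbmxl1 knockdown 22 were lower and 0 higher, against 28.2% and 30.1% of all genes. In the Rbmx knockdown 22 were lower and 13 higher, against 30.4% and 36.9% of all genes. The summed level in 3 and 4 was 0.823 times that in 1 and 2 in scramble, 0.758 times in the Rbmxl1 knockdown and 0.985 times in the Rbmx knockdown. What the numbers stand for was not tested, and the contrasts below were fitted with the replicate number as a block.

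In the Rbmx knockdown against scramble, by edgeR's quasi-likelihood test with Benjamini-Hochberg adjustment over all genes, 10 of the 62 tested genes rose and 0 fell at an adjusted p under 0.05 (16.1%). Over all 17569 genes 8.35% were called, 4.16% as higher and 4.19% as lower. The rises were between 1.21-fold and 1.43-fold, and 4 of the 10 were H4 genes. Of the 62 log2 fold changes, 57 were above 0, with a median of 0.31, while the median over all genes was 0.00 with 50.0% above 0. Histone genes whose 4 knockdown values all lay above the 4 scramble values numbered 22, against 4.22% of all genes, and 37 were higher in 4 of 4 same-number pairs, against 17.7% of all genes. The class medians ran from 0.26 in H2A to 0.36 in H1 on the log2 scale, and the called genes numbered 4 of 13 in H4, 2 of 5 in H1, 2 of 11 in H3, 1 of 16 in H2A and 1 of 17 in H2B. The genes lie close together and partly share sequence, so they are not independent of each other.

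These calls rest on the replicate block. Without it, 0 of the 62 genes and 1 of all 17569 (0.00569%) were called, the 10 genes had adjusted p-values of 0.285 to 0.536 in edgeR's test, and the median change of the 62 was 0.29. With the block, 0 of the 62 were called when scramble replicate 3 was left out (1.57% of all genes called), and likewise for replicates 3 and 4 of the Rbmx knockdown (2.43% and 5.89% of all genes). Leaving out scramble replicates 1 or 4, or replicate 2 of the Rbmx knockdown, gave 2, 3 and 2 calls (2.87%, 3.8% and 2.83% of all genes). In the other direction, 28 were called once replicate 1 of the Rbmx knockdown was dropped (4.69% of all genes). Dropping replicate 1 of the Rbmxl1 knockdown, which enters this contrast only through the shared fit, gave 24 (9.6% of all genes). Replicates 1 and 2 alone gave 0 calls (0.0230% of all genes) with a median of 0.19 and 55 of 62 changes above 0. Replicates 3 and 4 alone gave 32 higher and 2 lower (10.1% of all genes) with a median of 0.40 and 58 of 62 above 0; the difference between these sets was not tested. Each of the 10 called genes had a positive change in all 24 alternatives run. DESeq2 called 17 higher and 1 lower, 8 of them shared with the 10, where 11.5% of all genes were called.

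Among the H4 genes, Hist4h4 (ENSMUSG00000096010, minus strand), the only gene of its cluster, measured 166, 169, 149 and 166 CPM in scramble replicates 1 to 4 and 227, 199, 228 and 232 in the Rbmx knockdown. Its groups did not overlap, and both the lowest scramble value, in replicate 3, and the lowest knockdown value, in replicate 2, stood apart from the rest of their group. The log2 fold change was 0.45 ± 0.10 (SE; edgeR adjusted p = 0.0187). Its annotated model shares 8.10% of its words with another gene. That model runs 2445 bases past the stem-loop, and the share within the part up to the stem-loop was not measured.

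Hist2h4 (ENSMUSG00000091405, chr3:96261682-96263311, minus strand), the H4 gene of the chromosome 3 cluster, measured 209, 176, 200.1 and 206 CPM in scramble and 247, 228, 271 and 254 in the Rbmx knockdown. The groups did not overlap, and replicate 2 was the lowest library of each. The log2 fold change was 0.34 ± 0.08 (edgeR adjusted p = 0.0163), and 1.00% of its words are shared.

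Hist1h4f (ENSMUSG00000069274, chr13:23551258-23551648, minus strand) measured 56.4, 49.7, 50.2 and 50.03 CPM in scramble and 69.9, 65.3, 69.5 and 67.1 in the Rbmx knockdown. The groups were separate, with scramble replicate 1 the closest to the knockdown values. The change was 0.40 ± 0.10 on the log2 scale (edgeR adjusted p = 0.0236), and 39.5% of its words are shared. Hist1h4i (ENSMUSG00000060639, chr13:22040636-22041362, minus strand) measured 33.4, 34.3, 36.8 and 39.3 CPM in scramble and 39.3, 54.1, 56.5 and 51.7 in the knockdown. Knockdown replicate 1 stood just above the highest scramble value, and the change of 0.49 ± 0.15 passed narrowly (edgeR adjusted p = 0.0499). Hist1h4i shares 28.9% of its words. Of the 9 H4 genes not called, all had log2 fold changes above 0, from 0.14 for Hist1h4a to 0.35 for Hist1h4j.

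The linker histone H1 binds where DNA enters and leaves the nucleosome. Hist1h1e, which encodes H1.4 (ENSMUSG00000051627, chr13:23620629-23622558, minus strand), measured 221, 209, 149 and 162 CPM in scramble and 240.3, 254, 263 and 273 in the Rbmx knockdown. The knockdown values lay above all scramble values, and the pairs were farthest apart in replicates 3 and 4, where scramble was low. The log2 fold change was 0.51 ± 0.13 (edgeR adjusted p = 0.0254); it was 0.22 in replicates 1 and 2 alone and 0.77 in replicates 3 and 4 alone. The annotated span of Hist1h1e overlaps those of Hist1h2be and Gm11398 on the same strand, which makes its count uncertain.

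Hist1h1c, which encodes H1.2 (ENSMUSG00000036181, chr13:23738808-23740367, plus strand) and overlaps no other gene, measured 193, 179.6, 130.1 and 137 CPM in scramble and 206, 222, 219.7 and 225 in the Rbmx knockdown. Again the groups did not overlap and scramble replicates 3 and 4 were the low libraries. The change was 0.49 ± 0.13 (edgeR adjusted p = 0.0337); it was 0.22 in replicates 1 and 2 alone and 0.73 in replicates 3 and 4 alone. Hist1h1b, Hist1h1d and Hist1h1a, the other tested H1 genes, had changes of 0.36, 0.32 and 0.18 with edgeR adjusted p-values of 0.0564, 0.0705 and 0.254.

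Hist3h2ba (ENSMUSG00000056895, chr11:58948920-58949533, plus strand), an H2B gene, measured 82.4, 72.01, 61.6 and 60.3 CPM in scramble and 91.4, 96.0, 82.8 and 86.8 in the Rbmx knockdown. The lowest knockdown value, in replicate 3, was just above the highest scramble value, in replicate 1. The change was 0.39 ± 0.10 (edgeR adjusted p = 0.0255), and 22.1% of its words are shared. Hist1h2ak (ENSMUSG00000063021, chr13:21753435-21753827, minus strand), the H2A gene with the highest level per kilobase, measured 93.1, 79.2, 70.4 and 68.2 CPM in scramble and 105, 109, 99.3 and 109 in the knockdown. Its groups were also separate, with a change of 0.46 ± 0.12 (edgeR adjusted p = 0.0277), and 52.3% of its words are shared. The gene Gm44454 overlaps it on the opposite strand, and the strand setting of the counting is not given in the sources used here.

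The called H3 genes were Hist1h3c and Hist1h3e, whose groups overlapped. Hist1h3c (ENSMUSG00000069310, chr13:23744973-23745602, minus strand) measured 58.4, 41.2, 44.7 and 42.4 CPM in scramble and 55.02, 63.3, 60.1 and 58.8 in the Rbmx knockdown, and was higher in 3 of 4 pairs. Scramble replicate 1 was the exception. Its change was 0.37 ± 0.10 (edgeR adjusted p = 0.0353), and that of Hist1h3e (ENSMUSG00000069273, chr13:23561534-23562369, minus strand) was 0.28 ± 0.08 (adjusted p = 0.0415). Hist1h3e measured 156, 129.6, 113 and 117 CPM in scramble and 166, 169, 146 and 140.0 in the knockdown. It was higher in 4 of 4 pairs, and only scramble replicate 1 lay within the knockdown range. Shared words made up 47.0% of Hist1h3c and 73.4% of Hist1h3e.

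**Figure D3:**
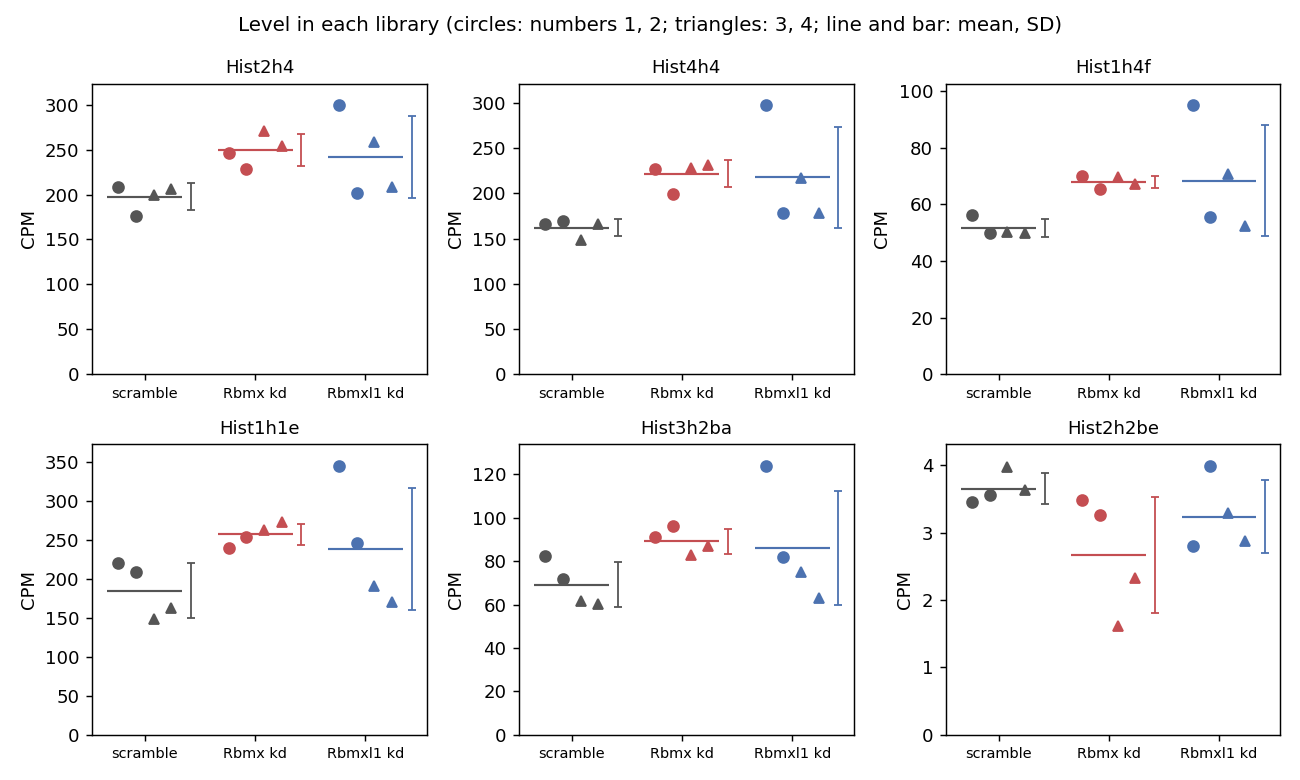
CPM (vertical axes, from 0) of 5 genes that rose in the Rbmx knockdown and of Hist2h2be in each of 12 libraries; horizontal lines are group means, bars are SD, circles are replicates 1 and 2, and triangles are replicates 3 and 4. The Rbmx knockdown and scramble points of Hist2h4, Hist4h4, Hist1h4f, Hist1h1e and Hist3h2ba do not overlap, and Rbmxl1 knockdown replicate 1 is the highest library in the first 5 panels.

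The largest positive change in the Rbmx knockdown was not called. Hist1h2ap, an H2A gene, measured 0.230, 0.256, 0.316 and 0.332 CPM in scramble and 0.613, 0.713, 0.413 and 0.657 in the knockdown, with a change of 1.04 ± 0.36 (edgeR adjusted p = 0.0858). The groups did not overlap, but the gene had 216 counts over 12 libraries and shares 93.1% of its words. The most negative change was that of Hist3h2a, the H2A neighbour of Hist3h2ba, at -0.49 ± 0.18 (adjusted p = 0.100). It measured 5.70, 6.28, 3.40 and 4.21 CPM in scramble and 4.55, 6.97, 2.16 and 1.82 in the knockdown, so the ranges overlapped, and its span overlaps Trim17 on the same strand.

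Hist2h2be is an H2B gene whose annotated model holds no stem-loop. It measured 3.45, 3.56, 3.97 and 3.63 CPM in scramble and 3.48, 3.26, 1.61 and 2.32 in the Rbmx knockdown, with a change of -0.49 ± 0.20 (edgeR adjusted p = 0.142). Replicates 3 and 4 of the knockdown were the lowest, and replicate 1 lay within the scramble range. Hist2h2aa2 had a change of -0.40 ± 0.20 (adjusted p = 0.231), and all of its words occur in another gene. In replicates 3 and 4 alone Hist3h2a and Hist2h2be were the 2 genes called lower, with changes of -0.94 and -0.97 (adjusted p = 0.0110 and 0.0106). The remaining Hist2 genes not called, Hist2h2bb, Hist2h2ab, Hist2h2ac, Hist2h3b and Hist2h3c2, had changes of 0.44, 0.35, 0.31, 0.27 and 0.02.

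**Figure D4:**
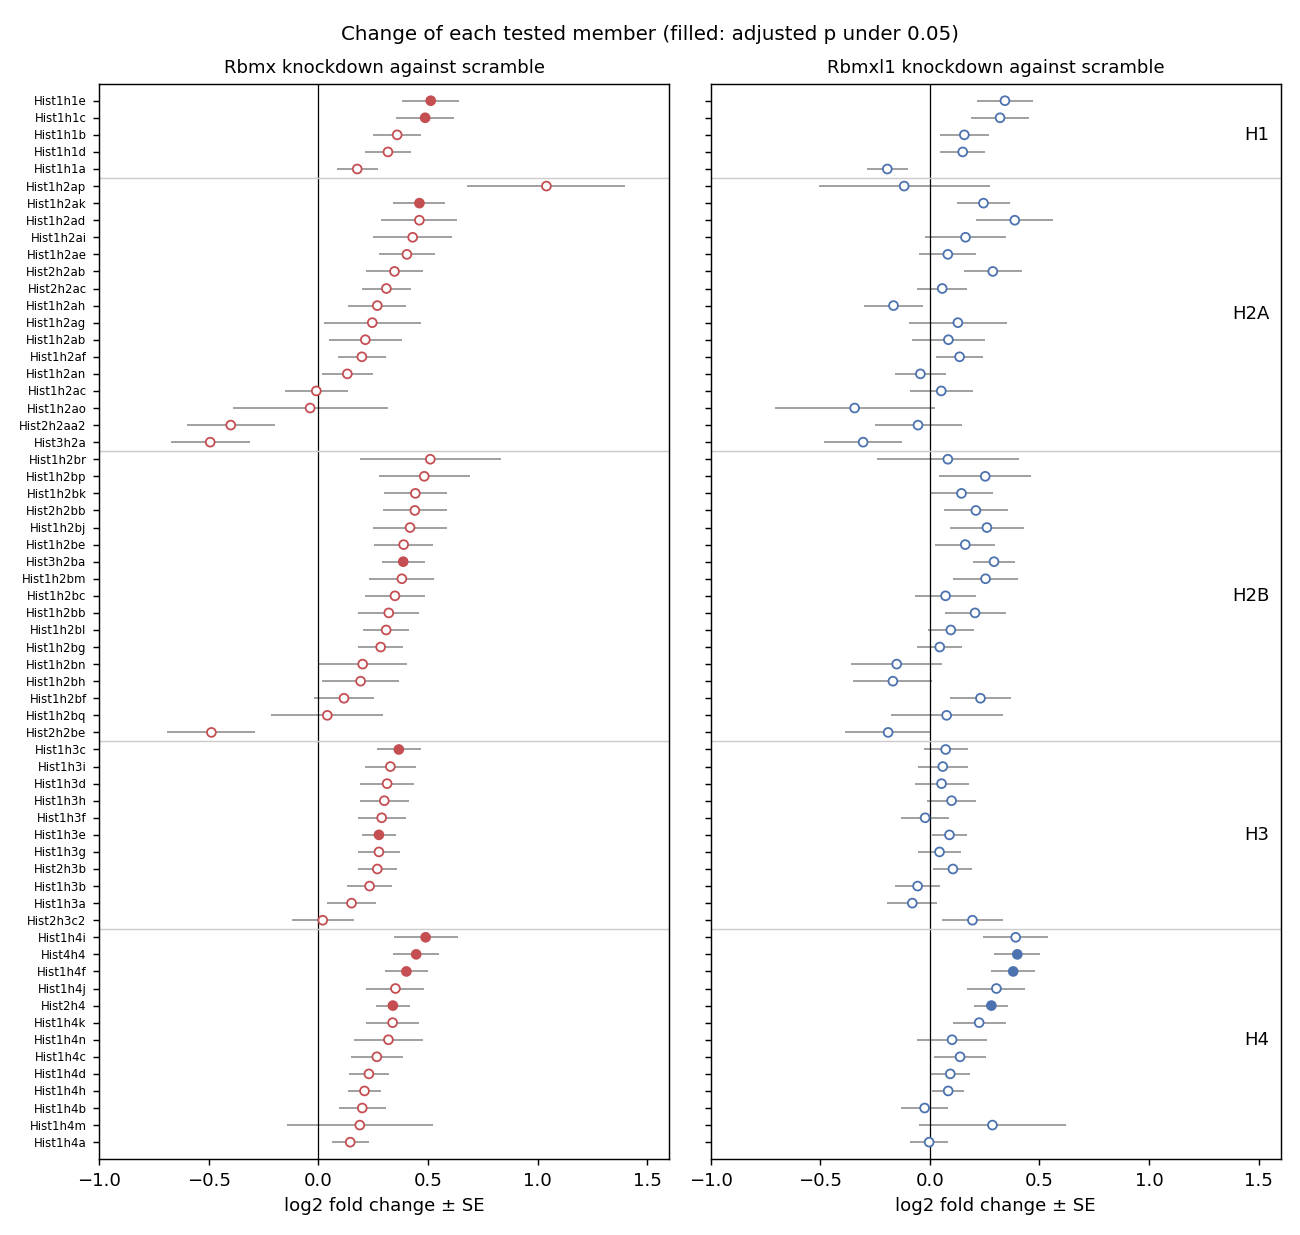
Log2 fold change ± SE of each of the 62 tested genes against scramble (horizontal axes), in the Rbmx knockdown (left) and the Rbmxl1 knockdown (right), grouped by class; filled points have an adjusted p under 0.05. On the left 57 points lie above 0 and 10 are filled; on the right 47 lie above 0 and 3 are filled, all H4 genes.

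In the Rbmxl1 knockdown 3 of the 62 tested genes rose and 0 fell by edgeR's quasi-likelihood test, a share of 4.84% where 4.46% of all genes were called, 2.25% as higher and 2.2% as lower, so the count was near the background. All 3 were H4 genes: Hist4h4, Hist1h4f and Hist2h4. Both contrasts use the same scramble libraries, which ties their values together. The median change of the 62 genes was 0.10, with 47 above 0, against a median of 0.01 over all genes. The H4 class had a median of 0.23 and the other classes 0.06 to 0.16. Only 1 gene, Hist4h4, had groups that did not overlap, against 2.88% of all genes, and 5 were higher in 4 of 4 pairs, against 13.4% of all genes.

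Hist4h4 measured 298, 178, 217 and 178 CPM in the Rbmxl1 knockdown, where scramble had 149 to 169. Replicate 1 was far above the other libraries. The change was 0.40 ± 0.10 (edgeR adjusted p = 0.0428). Hist1h4f measured 95.1, 55.5, 70.7 and 52.5 CPM, with scramble at 49.7 to 56.4. Replicates 2 and 4 lay within the scramble range, though each was above the scramble library of its own number, and the change was 0.38 ± 0.10 (adjusted p = 0.0427). Hist2h4 measured 299.7, 202, 259 and 208 CPM against 176 to 209 in scramble, with replicates 2 and 4 again inside that range and a change of 0.28 ± 0.08 (adjusted p = 0.0499).

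The H4 gene Hist1h4i, called in the Rbmx contrast, measured 62.5, 34.7, 55.2 and 38.2 CPM, a change of 0.39 ± 0.15 (edgeR adjusted p = 0.142). The H1 genes Hist1h1e and Hist1h1c had changes of 0.34 ± 0.13 and 0.32 ± 0.13 (adjusted p = 0.142 and 0.184), with 345 and 305 CPM in replicate 1 and 171 and 137 CPM in replicate 4. The H3 genes Hist1h3c and Hist1h3e had changes of 0.07 and 0.09 (adjusted p = 0.748 and 0.573). The most negative change was that of Hist1h2ao, at -0.34 ± 0.36 (adjusted p = 0.656). Leaving out scramble replicate 1, 3 or 4 left 0 of the 62 genes called, where 1.33%, 0.705% and 1.67% of all genes were called. The count was also 0 without Rbmx knockdown replicate 3 (3.69% of all genes) or without Rbmxl1 knockdown replicate 1 or 3 (1.29% and 1.91%), and it was 1 without scramble replicate 2 (1.09%). Without Rbmxl1 knockdown replicate 1 the median change was -0.01 with 30 of 62 above 0. Without the replicate block 0 were called (0.00569% of all genes), and the 3 genes had adjusted p-values of 0.438 to 0.518 in edgeR's test.

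In the direct comparison of the knockdowns 0 of 62 histone genes were called by edgeR's quasi-likelihood test, 12 had an unadjusted p under 0.05, and DESeq2 also called 0. Over all genes 2 were called (0.0114%), and 5.7% had an unadjusted p under 0.05. The changes of Rbmx knockdown over Rbmxl1 knockdown had a median of 0.17, with 54 of 62 above 0. Groups of 2 genes did not overlap, both higher in the Rbmx knockdown, against 0.569% of all genes. Hist1h1a, an H1 gene, measured 141, 151.8, 132 and 124.8 CPM in the Rbmx knockdown and 115.8, 100.5, 119.6 and 89.8 in the Rbmxl1 knockdown, a difference of 0.37 ± 0.09 (edgeR adjusted p = 0.820). Hist1h2ap, at under 1 CPM in every library, differed by 1.157 ± 0.37 (adjusted p = 0.859). The H4 genes Hist1h4f, Hist4h4 and Hist2h4 differed by 0.02 ± 0.10, 0.05 ± 0.10 and 0.06 ± 0.08 on the log2 scale (adjusted p = 0.985, 0.968 and 0.940). In replicates 3 and 4 alone 8 genes were called higher in the Rbmx knockdown, against 0.100% of all genes, among them Hist1h1e with a difference of 0.57 and Hist1h1c with 0.54 (edgeR adjusted p = 0.000928 and 0.00547). In replicates 1 and 2 alone these genes differed by -0.24 and -0.22 (adjusted p = 0.533 and 0.6).

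Replication-independent histone genes, which are transcribed outside S phase as well as in it and mostly end in a poly(A) tail, were examined as a list of 11. In the Rbmx knockdown 3 of the 11 rose and 0 fell (27.3%, where 8.35% of all genes were called), with a median change of 0.08. Of the same list 2 rose and 0 fell in the Rbmxl1 knockdown (18.2%, where 4.46% of all genes were called), with a median of 0.04. H1f0, the linker histone H1.0 of slowly dividing cells, measured 181, 185, 144 and 133 CPM in scramble, 234, 248, 295 and 215 in the Rbmx knockdown and 265, 295, 255 and 180.1 in the Rbmxl1 knockdown. Only replicate 4 of the Rbmxl1 knockdown fell into the scramble range. Its changes were 0.63 ± 0.09 and 0.62 ± 0.09 (edgeR adjusted p = 0.00241 and 0.00304).

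H1fx, which encodes linker histone H1.10, measured 82.4, 71.5, 87.6 and 78.4 CPM in scramble, 109, 108, 114 and 110.1 in the Rbmx knockdown and 113, 100.1, 137 and 98.3 in the Rbmxl1 knockdown, with no overlap with scramble. The changes were 0.47 ± 0.07 and 0.48 ± 0.07 (edgeR adjusted p = 0.00241 and 0.00253). H2afx, the H2A variant phosphorylated at DNA breaks, also carries the stem-loop motif. It measured 158, 155, 149 and 163 CPM in scramble and 196, 174, 194 and 195 in the Rbmx knockdown, a rise of 0.28 ± 0.06 (adjusted p = 0.0149), and had a change of 0.16 ± 0.06 in the Rbmxl1 knockdown (adjusted p = 0.157). All 3 genes overlap an annotated gene on the opposite strand, and H1fx also overlaps one on its own strand.

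Of 20 factors for the transcription, 3' end processing and decay of histone mRNA, 18 were tested. In the Rbmx knockdown 3 fell and 0 rose (16.7%, where 8.35% of all genes were called), and in the Rbmxl1 knockdown 2 fell and 0 rose (11.1%, where 4.46% of all genes were called). Npat, the coactivator that cyclin E-Cdk2 activates at histone loci, measured 103, 105, 98.4 and 98.7 CPM in scramble, 88.0, 91.8, 85.4 and 80.4 in the Rbmx knockdown and 98.1, 88.3, 80.1 and 83.3 in the Rbmxl1 knockdown. All knockdown values lay below all scramble values. Npat fell by 0.23 ± 0.06 and by 0.21 ± 0.06 on the log2 scale (edgeR adjusted p = 0.0227 and 0.0434).

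Casp8ap2 (FLASH), part of the histone cleavage machinery, fell by 0.19 ± 0.06 in the Rbmx knockdown and by 0.26 ± 0.06 in the Rbmxl1 knockdown (edgeR adjusted p = 0.0497 and 0.0251). Its scramble replicate 1, at 64.35 CPM, lay below Rbmx knockdown replicates 3 and 4, at 64.37 and 66.98. The Rbmxl1 knockdown values, 56.5 to 61.9 CPM, lay below all scramble values. Slbp, which binds the stem-loop of histone mRNAs, measured 57.8, 55.5, 53.5 and 55.3 CPM in scramble, 51.1, 47.9, 47.4 and 48.2 in the Rbmx knockdown and 52.0, 45.8, 49.5 and 46.7 in the Rbmxl1 knockdown. The ranges did not overlap. Slbp fell by 0.19 ± 0.06 in the Rbmx knockdown (adjusted p = 0.0433), while its change of -0.20 ± 0.06 in the Rbmxl1 knockdown did not pass (adjusted p = 0.0541). An annotated gene overlaps Slbp on the opposite strand.

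**Figure D5:**
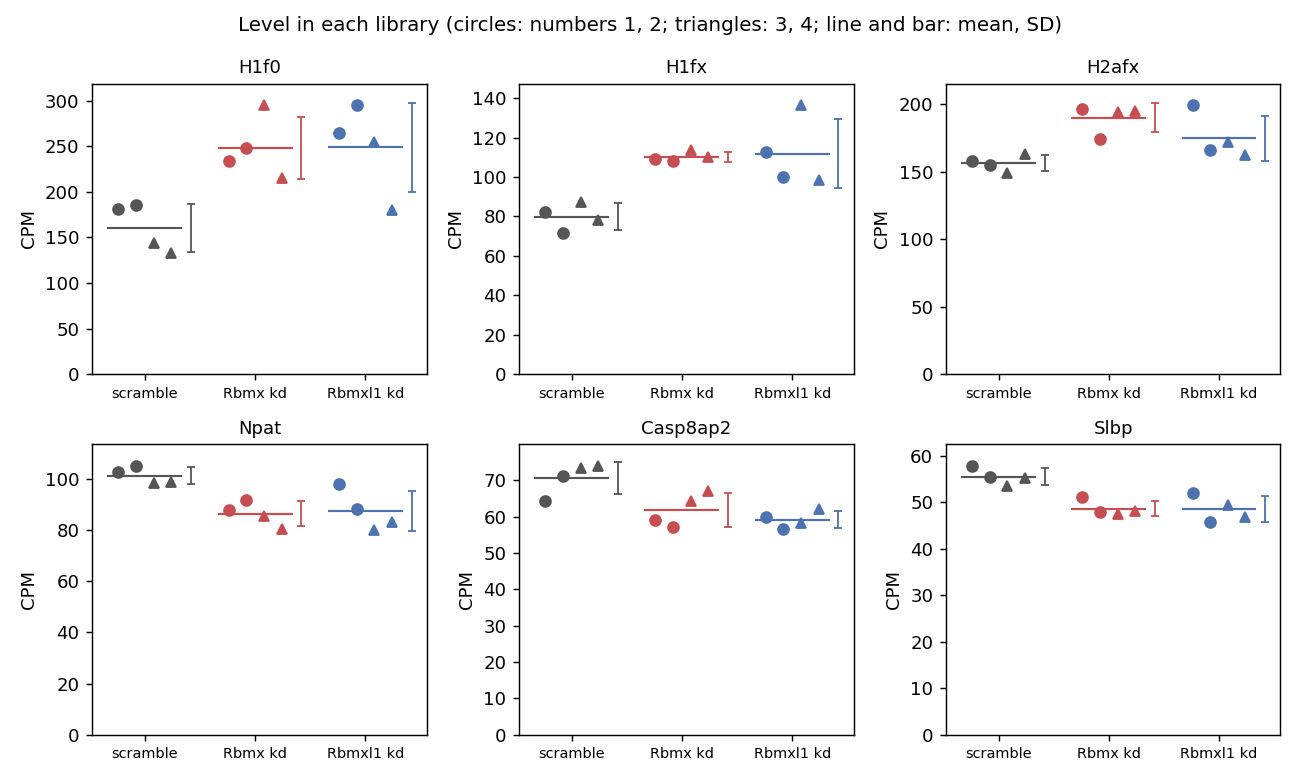
CPM (vertical axes, from 0) of 3 replication-independent histone genes and 3 histone mRNA factors in each of 12 libraries; lines are group means, bars are SD, circles are replicates 1 and 2, and triangles are replicates 3 and 4. H1fx lies at 71.5 to 87.6 CPM in scramble and at 98.3 or more in both knockdowns, and Npat lies at 98.4 or more in scramble and below that in both knockdowns.

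Of 18 histone chaperones and nucleosome assembly factors, 17 were tested. In the Rbmx knockdown 3 fell and 0 rose (17.6%, where 8.35% of all genes were called), and in the Rbmxl1 knockdown 1 fell and 0 rose, a share of 5.88% near the 4.46% of all genes. Tonsl, which reads newly deposited H4 on replicated DNA, measured 80.3, 73.3, 121 and 93.7 CPM in scramble and 63.7, 57.4, 70.2 and 76.6 in the Rbmx knockdown, and fell by 0.44 ± 0.09 (edgeR adjusted p = 0.0106). Atrx, the remodeler that deposits H3.3 with Daxx, fell by 0.27 ± 0.06 (adjusted p = 0.0187), and Cabin1, a subunit of the HIRA complex, by 0.24 ± 0.07 (adjusted p = 0.0348). In the Rbmxl1 knockdown Tonsl fell by 0.40 ± 0.09 (adjusted p = 0.0232), and Atrx and Cabin1 had changes of -0.22 and -0.20 (adjusted p = 0.0551 and 0.0916). Tonsl overlaps Vps28 and Atrx overlaps Gm14853 on the same strand. The chaperones that carry newly made H3 and H4 to the fork were not called in either knockdown: Asf1a, Asf1b, Chaf1a, Chaf1b and Nasp. Chaf1a came close in the Rbmx knockdown, with a change of -0.20 ± 0.06 (edgeR adjusted p = 0.0520). In the Rbmxl1 knockdown its change was -0.13 ± 0.06 (adjusted p = 0.229). Chaf1a and Nasp were lower in 4 of 4 pairs in both knockdowns, while Asf1b was higher in 4 of 4 pairs in both.

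Over the 3 lists 9 of 46 tested genes were called in the Rbmx knockdown (19.6%) and 5 in the Rbmxl1 knockdown (10.9%), where 8.35% and 4.46% of all genes were called. Without the replicate block 0 were called in both. In the Rbmx contrast the count was 5, 2 and 4 without scramble replicate 1, 3 or 4, where 2.87%, 1.57% and 3.8% of all genes were called. It was 4, 4 and 3 without Rbmx knockdown replicate 1, 2 or 3 (4.69%, 2.83% and 2.43% of all genes). In the Rbmxl1 contrast it was 3 without scramble replicate 1, 2 or 4 (1.33%, 1.09% and 1.67% of all genes), and 2 without scramble replicate 3 (0.705%) or Rbmxl1 knockdown replicate 3 or 4 (1.91% and 1.79%).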

How the data were processed

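Counts per gene were deposited by the authors for 12 libraries, raw and without normalization. The submitters' processing notes list cutadapt, STAR 2.5.3a, HTSeq 0.6.1p1, R 3.3.2, DESeq2 1.16.1 and the build mm10; the annotation release, strand setting and read length are not given in the sources used here. Closing rows of each file that name no gene held 52.3% to 57.4% of its total and were left out. Gene names, classes and lengths came from GENCODE M21.

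Counts were fitted with edgeR 4.0.16 in R 4.3.3: genes kept by filterByExpr (minimum count 10, minimum total 15; 17569 genes, 62 of 67 histone genes), TMM scaling, and a quasi-likelihood model over all 12 libraries with group and replicate number as terms. Calls needed an adjusted p (Benjamini-Hochberg, over all genes) under 0.05. CPM used TMM-scaled library sizes. The script was tested on simulated data.

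The block was used because the groups share replicate numbers. As a check that the numbers pair the samples, deviations from group means (log2 CPM) correlated at r = 0.20 to 0.52 in the 12 same-number pairs across groups. They correlated at 0.10 to 0.43 in 12 pairs of different numbers that were both 1 and 2 or both 3 and 4, and at -0.57 to -0.13 in the other 24 pairs. The numbers come from the labels, which do not say what shares a number. The first 2 ranges overlapped, so these values do not show that samples are paired by number. They separate numbers 1 and 2 from numbers 3 and 4. The common dispersion was 0.00929 with the block and 0.0362 without it.

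The histone genes, the lists (replication-independent histones, 11; histone mRNA factors, 20; chaperones, 18; neuroblast markers, 10; other cell markers, 9) and the rules were chosen with earlier results of these data known. The symbols Zcchc6, Zcchc11 and Spt2 did not match. Named genes were the highest and lowest tested gene per kilobase in each class, all called genes, the most changed gene in each direction in each contrast, every Hist2, Hist3 and Hist4 gene, and all called genes of the related lists; genes named beside them were chosen after their values were seen. Alternatives were no block, DESeq2 1.42.0, other scaling, no filter, fewer groups or libraries, replicate sets apart, and genes with little shared sequence.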

Additional observations from a re-analysis of the deposited data

Results flagged for a closer look

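Of 123 groups of 4 libraries examined for named genes and summed levels, 7 had 1 library far from the other 3 by Dixon's test at the 95% level, a rate that chance gives in about 1 in 20 groups. Scramble replicate 1 was high for Hist1h4f, at 56.4 CPM where the others had 49.7 to 50.2, and for Hist2h3b, at 303.9 CPM where the others had 233 to 237. Hist4h4 was low in scramble replicate 3, at 149 CPM against 166 to 169, and in Rbmx knockdown replicate 2, at 199 CPM against 227 to 232. Rbmx knockdown replicate 2 was also low for H2afx, at 174 CPM against 194 to 196, and for the summed level of the 13 H4 genes, at 1404 CPM against 1483 to 1494. Hist1h2br was low in Rbmx knockdown replicate 1, at 1.27 CPM against 1.86 to 1.91.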

How the results depend on the processing

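The count of histone genes called in the Rbmx knockdown, 10, was 0 with no replicate block, 18 with DESeq2, 6 with library totals in place of TMM, 41 of 65 with no filter on low counts, 34 with only the groups compared in the fit, 0 in replicates 1 and 2 alone and 34 in replicates 3 and 4 alone; over all genes these settings called 0.00569%, 11.5%, 7.88%, 6.56%, 12.9%, 0.0230% and 10.1%, against 8.35%. It ran from 0 to 28 when a library or replicate number was left out (0.831% to 10.7% of all genes). RLE scaling gave 10, and 8 of the 33 genes with at most 50% shared words were called. In the Rbmxl1 knockdown the 3 calls became 0 with no replicate block, 11 with no filter, 0 with only the groups compared and 0 and 1 in the replicate sets (0.00569%, 3.91%, 2.51%, 0.172% and 5.53% of all genes, against 4.46%), and 0 to 4 with libraries left out (0.57% to 5.77%). In the direct comparison the count of 0 became 4 with no filter (0.271% of all genes), 8 in replicates 3 and 4 alone (0.1%) and 0 to 3 with libraries left out (0.0111% to 0.0394%, the highest without replicate 1). The 9 and 5 related genes called became 0 and 0 with no replicate block and 0 and 1 in replicates 1 and 2 alone; they ran from 2 to 9 and from 2 to 6 with libraries left out, and the 5 became 9 with DESeq2, where the share of all genes rose to 7.28% from 4.46%, and 3 with only the groups compared (2.51%). The median level was 46.4 CPM per kilobase and 93.9 over unshared bases. The causes of these differences were not tested. No change of a called gene reversed its sign under any alternative. Depth limits the genes under about 1 CPM, and near-identical copies lose reads at any depth.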

Other observations

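The Hist-named pseudogenes were not among the 67 genes. Hist1h2al, annotated as a pseudogene, had a median of 87.5 CPM over the 12 libraries (67.4 to 111), Hist3h2bb-ps had 4.85 CPM (2.45 to 7.32), and Hist1h2aj had 0.177 CPM (0 to 0.241).

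The extent of the annotated model also differed among the histone genes. In 23 genes the model ended within 100 bases of the stem-loop, and 2 of the 22 tested rose in the Rbmx knockdown. In 23 genes it ran on by more than 100 bases, and 7 of the 21 tested rose; the medians of the changes were 0.29 and 0.31 on the log2 scale. Of the 21 genes with no stem-loop in the model, 1 of 19 tested rose, with a median of 0.31. Over all genes 8.35% were called in that contrast, and the difference between these groups of genes was not tested.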
